A study of Rattus norvegicus with 6 samples.

Results

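The miR-26 family was described in small RNA from the lens capsules of Sprague Dawley rat pups. Its members were the rows of the miRNA count table named rno-miR-26a or rno-miR-26b, taken with both arms, which gave 4 of the 910 names listed, and no other name of any species held miR-26. The control group was 3 pups injected under the skin with saline, and the Na2SeO3 group was 3 pups injected in the same way on days 3, 5, and 7 with 20 μmol of sodium selenite per kg. Pups were 8 days old when the model was set up, and the lenses were taken on day 15 of the experiment. Whether the injection days count from birth or from the start of the experiment is not given in the sources used here. The labels name no other treatment or genetic change in either group. Each library came from a separate rat, and the selenite reached the whole animal rather than the lens alone.

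A miRNA is cut from a hairpin precursor that can release one product from each side, the 5p arm and the 3p arm. The loaded arm finds its target mRNAs mainly through bases 2 to 8, the seed, and lowers their translation or stability. miR-26 is a broadly expressed family whose known targets include Ezh2, a histone methyltransferase, and Smad1, a transducer of BMP signals, and in lens epithelial cells it is known for holding back the epithelial to mesenchymal transition (EMT) and fibrosis, in part through the Notch ligand Jag1.

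All 4 members were found by name in the RefSeq table of assembly GRCr8. The mature sequences are shown because the seed makes the members one family and the remaining bases let reads be assigned to one of them. Capitals mark the seed of each 5p arm.

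rno-miR-26a-5p: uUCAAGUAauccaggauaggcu
rno-miR-26b-5p: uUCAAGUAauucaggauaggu
rno-miR-26a-3p: ccuauucuugguuacuugcac
rno-miR-26b-3p: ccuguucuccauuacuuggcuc

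Both 5p arms carried the seed UCAAGUA, which pairs with UACUUGA in a target, and they were the only 2 of the 693 mature rat names in that table with this seed. Counted from the 5′ end of rno-miR-26a-5p, the 5p arms were identical at 19 of 21 positions and differed by C11U and C21U, with 1 further base at the 3′ end of rno-miR-26a-5p. The 3p arms were identical at 14 of 21 positions. How the counting assigned reads that could fit both 5p arms is not given in the sources used here.

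The precursors are printed next because the position of the arms in them underlies the comparison of arms. Capitals mark the 5p arm and then the 3p arm.

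Mir26a: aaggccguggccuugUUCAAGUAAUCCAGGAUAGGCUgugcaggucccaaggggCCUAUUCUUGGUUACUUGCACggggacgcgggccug
Mir26b: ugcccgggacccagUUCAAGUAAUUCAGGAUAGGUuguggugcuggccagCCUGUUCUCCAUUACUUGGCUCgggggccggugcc

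Mir26a lies at chr8:127633048-127633137 and Mir26b at chr9:83425709-83425793 in GRCr8, both on the plus strand. Mir26a sits inside Ctdspl and Mir26b inside Ctdsp1, a pair of related protein-coding genes for small phosphatases that act on the C-terminal domain of RNA polymerase II, and each host gene is on the same strand as its miRNA. The genome build behind the deposited counts is not given in the sources used here.

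The counts per library summed to between 663096 and 2829903, with every Na2SeO3 library (at most 968151) below every control library (at least 1806596), so that 3 counts corresponded to 1.06 to 1.66 CPM (the count relative to the library total, on the usual CPM scale) in the control group and to 3.10 to 4.52 CPM in the Na2SeO3 group. Such limits, and the intervals given below, hold for counting error alone, since reads sequenced without molecular identifiers can be copies of one molecule. The study's raw read numbers for these miRNA libraries overlapped between the groups. The totals here are of reads assigned to names, and why they were lower in the Na2SeO3 group was not tested. Shares and unscaled CPM below are relative to these totals, not to raw reads. After removal of names with too few reads, 341 names were tested with edgeR's quasi-likelihood test. Lens and eye miRNAs were abundant in every library, with the 6 listed together at 243734 to 262915 CPM in the control group and 246192 to 270604 CPM in the Na2SeO3 group. Although this sum hardly moved, its members did not move alike, and the list mixes lens and other eye miRNAs, so the sum does not measure lens content. On the TMM scale described below, rno-miR-184, one of the 6, was lower in the Na2SeO3 group, at 37254 ± 3194 against 81459 ± 6586 CPM (SD, n = 3 each, edgeR log2 fold change -1.13, adjusted p = 3.48e-05). The log2 fold changes of the other 5 were 0.21 (rno-miR-182, on average the most abundant of the 6), 0.21 (rno-miR-183-5p), -0.02 (rno-miR-96-5p), -0.19 (rno-miR-211-5p), and -0.40 (rno-miR-204-5p). None of these 5 passed an adjusted p-value of 0.05. Of all 341 names, 13.8% were lower and 20.8% higher at that threshold. Marker miRNAs of other tissues were also present. All 4 striated muscle miRNAs listed passed an adjusted p-value of 0.05 and were higher in the Na2SeO3 group (6323 to 7592 against 14375 to 14702 CPM in sum, with rno-miR-1-3p highest), and both surface epithelium miRNAs, rno-miR-203a-3p and rno-miR-205, were lower (4093 to 5299 against 2327 to 2722 CPM). The erythroid list summed to 219 to 285 against 418 to 537 CPM, with rno-miR-486 higher and 3 members tested, and the neural retina list to 30405 to 32069 against 41977 to 48408 CPM, with rno-miR-9a-5p higher among 4. These sums are unscaled, while the calls used the TMM scale. There rno-miR-9a-5p passed only narrowly (edgeR, adjusted p = 0.0478), and its groups overlapped. Leukocyte miRNAs summed to 125 to 159 against 107 to 165 CPM with none of 4 passing (rno-miR-150-5p was highest), and those of vessels and smooth muscle to 48426 to 56527 against 51370 to 53245 CPM with 2 of 4 lower, rno-miR-143-3p and rno-miR-145-5p. No listed marker was at 0 in all libraries. The part of these other tissues in the miR-26 values below was not tested, and in a bulk sample fewer cells of a type cannot be told apart from less RNA per cell.

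rno-miR-26a-5p was one of the most abundant miRNAs of the lens capsule in both groups. It was counted 111559, 76411, and 61931 times in control libraries 1 to 3 and 21673, 35644, and 27399 times in Na2SeO3 libraries 1 to 3. These counts placed it 5th or 6th of all names in the control libraries and 7th or 8th in the Na2SeO3 libraries. Its share of the library total, before any scaling, was 3.94% (95% exact binomial interval 3.92% to 3.96%), 3.68% (3.66% to 3.71%), and 3.43% (3.40% to 3.45%) in the control libraries. In the Na2SeO3 libraries the shares were 3.27% (3.23% to 3.31%), 3.68% (3.64% to 3.72%), and 3.12% (3.09% to 3.16%). The groups overlapped on this scale, because Na2SeO3 library 2 lay above control library 3 and level with control library 2. The means were 3.68% ± 0.257 and 3.36% ± 0.290 (SD, n = 3 each), a difference of -0.327 percentage points (two-sided exact permutation test, p = 0.3, where the smallest p that 3 against 3 allows is 0.1). The overlap of the groups holds for the full total. When the other names among the 10 most abundant were left out of the total, every control library held at least 10.96% and every Na2SeO3 library at most 10.004%, so that the groups no longer overlapped (exact permutation test, p = 0.1).

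rno-miR-26b-5p was the less abundant of the 5p arms. It was counted 9799, 7231, and 5943 times in control libraries 1 to 3 and 1955, 3569, and 3587 times in Na2SeO3 libraries 1 to 3, which ranked it between 32nd and 38th in every library. It held 0.346% (interval 0.339% to 0.353%), 0.348% (0.340% to 0.356%), and 0.329% (0.321% to 0.337%) of the control libraries, a mean of 0.341% ± 0.0106 (SD, n = 3). In the Na2SeO3 libraries it held 0.295% (0.282% to 0.308%), 0.369% (0.357% to 0.381%), and 0.409% (0.395% to 0.422%), a mean of 0.357% ± 0.0577 (SD, n = 3). The Na2SeO3 libraries thus lay on both sides of the control libraries (exact permutation test, p = 0.7). The whole family, arms summed, held 3.76% to 4.29% of the counts in the control libraries and 3.53% to 4.05% in the Na2SeO3 libraries, and rno-miR-26a-5p made up 88.4% to 91.9% of it.

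The 3p arms were almost never counted. rno-miR-26a-3p had 1 count in control library 1 and none in the other 5 libraries, where the limit of 3 counts described above is 4.52 CPM in the library with the lowest total. rno-miR-26b-3p was counted 4, 1, and 0 times in control libraries 1 to 3 and 0, 1, and 3 times in Na2SeO3 libraries 1 to 3. Over all 6 libraries the 3p arm was 1 of 334618 reads of miR-26a (0.000299%, 95% exact binomial interval 7.57e-06% to 0.00167%) and 9 of 32093 reads of miR-26b (0.0280%, interval 0.0128% to 0.0532%). Among the 132 rat miRNAs whose 5p arm was tested and whose 3p arm was listed under the matching name, the median share of the 3p arm was 6.10%. Of these, 20 had a smaller share than miR-26b and 13 a smaller share than miR-26a. Only the 5p arm had to pass the filter, so this set can leave out precursors counted mainly on the 3p arm. Neither 3p arm passed the filter on low counts. In the edgeR fit without a filter, their adjusted p-values were 0.695 (rno-miR-26a-3p) and 0.718 (rno-miR-26b-3p). The log2 ratio of the 5p to the 3p arm of rno-miR-26b, with 0.5 added to both counts, was 12.29 ± 1.23 in the control group and 11.05 ± 0.98 in the Na2SeO3 group (SD, n = 3 each), ranges that overlapped (exact permutation test, p = 0.3), and the difference rests on 0 to 4 reads per library. With so few 3p reads the ratio moves with single reads and with the library's total count, which was lower in the Na2SeO3 group. The ratio is thus no measure of arm use between the groups. Without control library 3 the difference went from -1.24 to -0.61. With 5 added to both counts it was -1.30 and the ranges no longer overlapped (exact permutation test, p = 0.1), but 5 is more than any 3p count, so that this version follows the 5p count and the total count.

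After scaling, rno-miR-26a-5p was lower in the Na2SeO3 group, by a small amount. TMM scaling adjusts the library sizes on the assumption that the bulk of the miRNAs keep their level. On this scale rno-miR-26a-5p was at 38537, 39521, and 40078 CPM in control libraries 1 to 3 and at 31559, 32358, and 30136 CPM in Na2SeO3 libraries 1 to 3. Every control library lay above every Na2SeO3 library, as was true in one direction or the other for 46.3% of the 341 names tested. The control mean was 39378 ± 780 CPM and the Na2SeO3 mean 31351 ± 1126 CPM (SD, n = 3 per group). The log2 fold change was -0.33 (SE 0.12, 95% interval -0.59 to -0.071), which is 0.80 times the control level (0.67 to 0.95). By edgeR the adjusted p-value was 0.0478, just inside the threshold of 0.05. This passing result depended on the setting. The edgeR adjusted p-value was 0.0169 with upper-quartile scaling, 0.0243 with the size factors of DESeq2, and 0.0328 with names of at least 10 counts in every library, and that of DESeq2 was 0.0110, with log2 fold changes of -0.41 to -0.34. Leaving out a library raised the edgeR adjusted p-value to 0.0628, 0.0927, and 0.105 for control library 1, 2, and 3, and to 0.0569, 0.0639, and 0.0926 for Na2SeO3 library 1, 2, and 3, while the log2 fold change stayed between -0.36 and -0.30. The adjusted p-value was 0.426 with library size only as the scale, where the log2 fold change was -0.13, and 0.127 in the edgeR fit that took replicate numbers as a block, where the log2 fold change was -0.33. Without a filter on low counts the adjusted p-value was 0.0615 and the log2 fold change -0.41.

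For rno-miR-26b-5p no difference passed the test. TMM-scaled values were 3385, 3740, and 3846 CPM in control libraries 1 to 3 and 2847, 3240, and 3945 CPM in Na2SeO3 libraries 1 to 3. The highest and the lowest values were both Na2SeO3 libraries. The control mean was 3657 ± 241 CPM and the Na2SeO3 mean 3344 ± 557 CPM (SD, n = 3 per group). The log2 fold change was -0.13 (SE 0.16, 95% interval -0.47 to 0.22), with an adjusted p of 0.584 by edgeR. The interval runs from 0.72 to 1.16 times the control level, so that a fall of the size seen for rno-miR-26a-5p lies within it. With library size only as the scale the sign turned, to 0.068. Without each library in turn the log2 fold change ranged from -0.27 (without Na2SeO3 library 3) to -0.050 (without Na2SeO3 library 1). The edgeR adjusted p-values of these fits were 0.227 to 0.863.

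**Figure D1:**
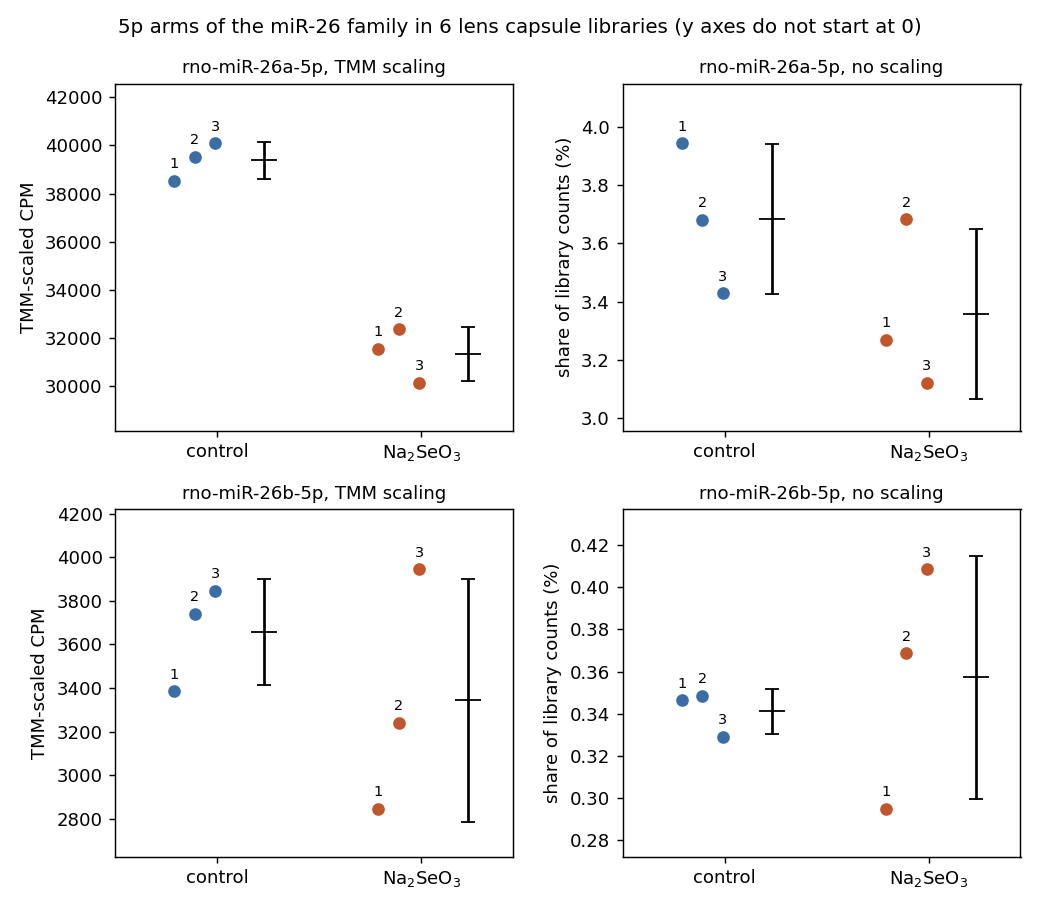
Values of rno-miR-26a-5p (top) and rno-miR-26b-5p (bottom) in each library, as TMM-scaled CPM (left) and as percent of the library's counts (right). Points are libraries with their replicate number, and bars are the mean ± SD of 3. For rno-miR-26a-5p the groups are apart on the TMM scale (30136 to 32358 against 38537 to 40078 CPM) and overlap as shares of the full total, and for rno-miR-26b-5p they overlap on both.

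Neither of the 2 members tested was a DEmiRNA at the study's thresholds, an adjusted p-value of 0.05 with an absolute log2 fold change of 1, which 16.4% of the 341 names met, and DESeq2 called neither. At an unadjusted p-value of 0.05, both edgeR and DESeq2 called 1 of the 2, rno-miR-26a-5p, where edgeR called 44.3% of all names and DESeq2 39.9%. Without the fold change threshold 1 member was lower, where 13.8% of all names were, and none was higher, where 20.8% were, so that 34.6% of all names passed in either direction. With library size only as the scale, 30 names were lower and 97 higher, beside 47 and 71 with TMM. In size, 144 of the 341 names had a smaller absolute log2 fold change than rno-miR-26a-5p and 60 had a smaller one than rno-miR-26b-5p. On the TMM scale rno-miR-26a-5p varied little among libraries of one group, with a coefficient of variation of 1.98% in the control group and 3.59% in the Na2SeO3 group, where the medians of all names tested were 14.1% and 17.8%. Only 6 and 11 of the 341 names had a smaller one. For rno-miR-26b-5p the coefficients were 6.60% and 16.6%. As shares of the full total, the coefficients of rno-miR-26a-5p were 6.98% and 8.65%, with 64 and 60 names smaller, and those of rno-miR-26b-5p were 3.12% and 16.2%, so that the order of the 2 members in the control group depends on the scale.

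The scale itself moved between methods. The median log2 fold change of all names tested was 0.08 with TMM, 0.27 with library size only, 0.01 with the size factors of DESeq2, and -0.01 with upper-quartile scaling. Relative to that median, the log2 fold change of rno-miR-26a-5p was -0.41, -0.40, -0.40, and -0.40 in the same order, and that of rno-miR-26b-5p was -0.21, -0.20, -0.20, and -0.20. Both members lay below the middle of all names. A change of scaling moves nearly all names by the same amount, so that the likeness of these distances over the 4 scalings follows from how they were computed.

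**Figure D2:**
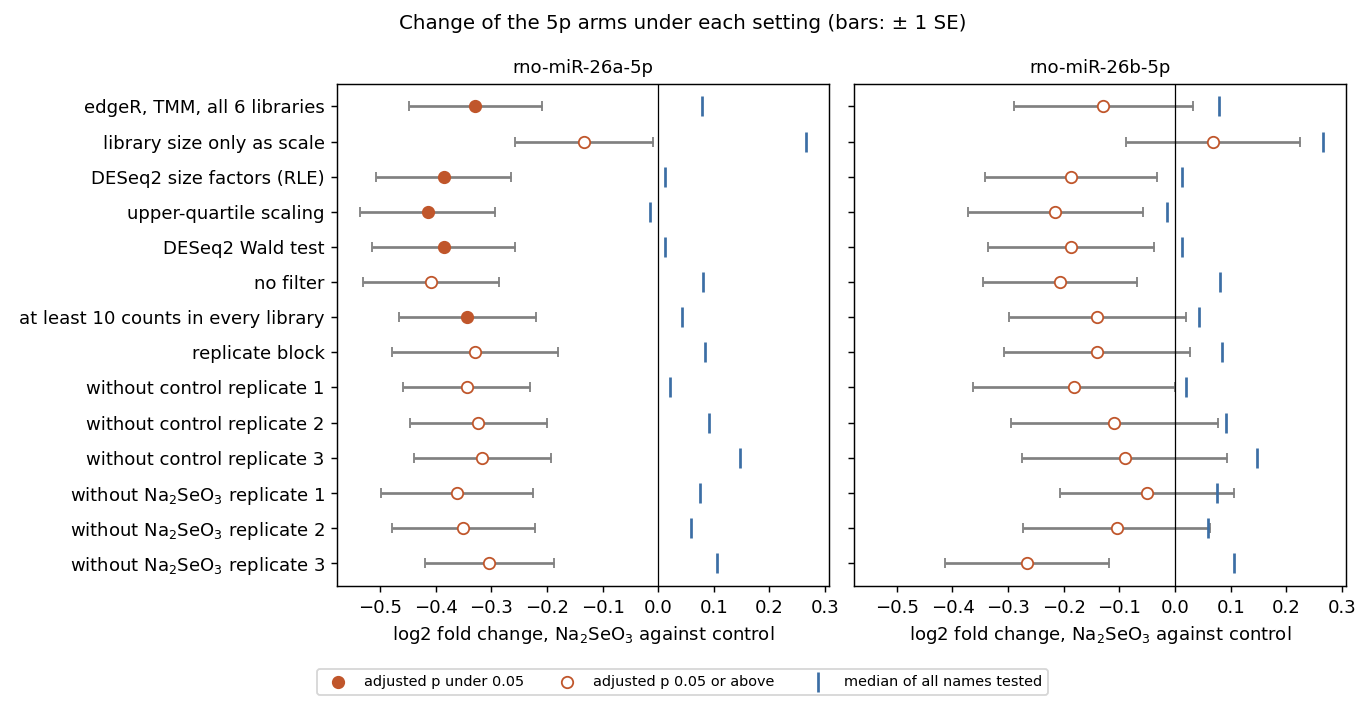
Log2 fold change (Na2SeO3 against control) of rno-miR-26a-5p (left) and rno-miR-26b-5p (right) under each setting, with bars of 1 standard error and filled points where the adjusted p-value was under 0.05. Blue ticks mark the median of all names tested in that setting. rno-miR-26a-5p stays between -0.41 and -0.13 and is filled in 5 of the 14 settings shown, and rno-miR-26b-5p is filled in none and lies above 0 with library size only.

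Ratios of counts within a library do not depend on scaling. In control libraries 1 to 3 there were 11.4, 10.6, and 10.4 reads of rno-miR-26a-5p for each read of rno-miR-26b-5p, and in Na2SeO3 libraries 1 to 3 there were 11.1, 9.99, and 7.64. The lowest ratio was that of Na2SeO3 library 3, while Na2SeO3 library 1 lay within the control range and library 2 just under it. On the log2 scale the means were 3.43 ± 0.07 and 3.24 ± 0.28 (SD, n = 3 each), a difference of -0.19 (two-sided exact permutation test, p = 0.4). It was -0.035 without Na2SeO3 library 3 and -0.30 without Na2SeO3 library 1.

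rno-miR-26a-5p was also set against a pair of other broadly expressed families in the same libraries. Its count was 0.476, 0.394, and 0.437 of the summed 5p arms of let-7 and miR-98, a family of 9 names known for promoting differentiation, in control libraries 1 to 3. In Na2SeO3 libraries 1 to 3 the ratios were 0.368, 0.401, and 0.326. The ranges overlapped only through control library 2 and Na2SeO3 library 2, with a log2 difference of -0.26 (exact permutation test, p = 0.2). With the mean of the log2 counts of the family in place of the sum, which gives each name equal weight, the difference was -0.37 and the groups no longer overlapped (exact permutation test, p = 0.1). Against the summed 5p arms of the miR-30 family, 5 names that are likewise known in fibrosis, the ratios were 1.46, 1.33, and 1.17 in the control libraries and 1.32, 1.65, and 1.37 in the Na2SeO3 libraries. This log2 difference was 0.13, in the opposite direction (exact permutation test, p = 0.5), and it shrank to 0.037 without Na2SeO3 library 2 and to 0.050 without control library 3 (p = 1.0 in both). The 6 exact tests of shares and ratios had adjusted p-values of 0.6 to 0.7.

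**Figure D3:**
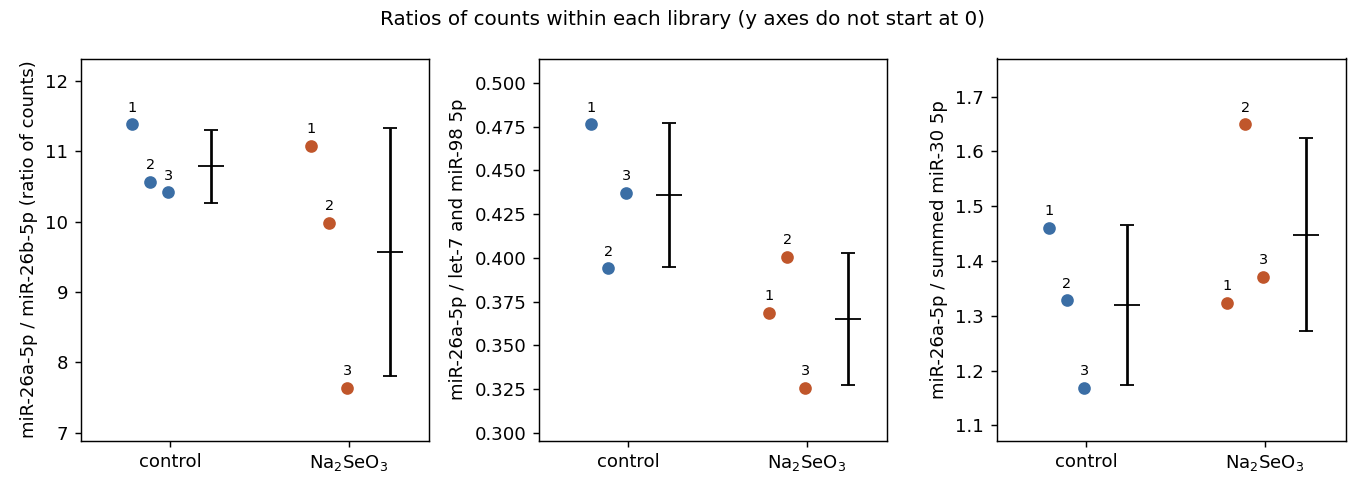
Ratio of the rno-miR-26a-5p count to that of rno-miR-26b-5p (left), to the summed let-7 and miR-98 5p arms (middle), and to the summed miR-30 5p arms (right) in each library, with bars for the mean ± SD of 3. The groups overlap in all 3 panels, and Na2SeO3 library 3 has the lowest ratio in the left panel (7.64) and the middle panel (0.326).

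By the distance between profiles, the root-mean-square difference of log2 CPM over the 6 libraries after each name was centred on its mean, the names most like rno-miR-26a-5p were rno-miR-99a-5p (distance 0.04), rno-miR-325-5p (0.06), and rno-miR-34a-5p (0.07), where the median of 324 rat names was 0.35. rno-miR-99a-5p, which is more abundant, was at 162130, 164419, and 165787 CPM in control libraries 1 to 3 and at 128052, 132471, and 116189 CPM in Na2SeO3 libraries 1 to 3. Its control libraries also all lay above its Na2SeO3 libraries, and by edgeR its log2 fold change was -0.39 with an adjusted p of 0.0141. For rno-miR-26b-5p the nearest names were rno-miR-148b-3p (0.06), rno-miR-30c-2-3p (0.07), and rno-miR-150-5p (0.07), which also had their highest Na2SeO3 value in library 3. The nearest names were chosen over these same 6 libraries. Their likeness to the members, that of rno-miR-99a-5p included, therefore follows from the choice and is no separate support. The members lay 0.19 from each other, and 39 rat names were nearer to rno-miR-26a-5p than rno-miR-26b-5p was.

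Other miRNAs linked to limiting fibrosis or EMT were mostly lower where they passed the test. All 28 on the list were tested, of which 11 were lower, 2 were higher, and 15 did not pass (edgeR, adjusted p-value of 0.05), where 13.8% of all names were lower and 20.8% higher. Their median log2 fold change was -0.36, beside 0.08 for all names tested. The list was chosen with earlier results of these data known, and it counts miRNAs of the same family separately. The 11 included the 3 members of the miR-29 family, which restrains collagen production, with rno-miR-29a-3p at -1.70 (1688, 1273, and 1727 CPM in control libraries 1 to 3, and 409, 606, and 421 CPM in Na2SeO3 libraries 1 to 3). They also included 4 miRNAs of the miR-200 family, which keeps cells epithelial by lowering Zeb1 and Zeb2, with rno-miR-200b-3p at -1.45. The surface epithelium miRNAs named above fell beside them (rno-miR-203a-3p at -1.21 and rno-miR-205 at -0.93), and their part in this list was not tested. Of the miR-30 family, rno-miR-30a-5p (-0.52), rno-miR-30c-5p (-0.56), and rno-miR-30d-5p (-0.44) were among them, which are larger falls than that of rno-miR-26a-5p, although no difference between these miRNAs was tested. In the same families, rno-miR-30e-5p (-0.45), rno-miR-30b-5p (-0.09, a smaller fall than that of rno-miR-26a-5p), and rno-miR-141-3p of the miR-200 family (-0.91) did not pass. The 2 that were higher, rno-miR-133a-3p and rno-miR-133b-3p, are muscle miRNAs that also stand on the striated muscle list. The most abundant on the list were rno-let-7i-5p (-0.17) and rno-let-7f-5p (-0.07), neither of which passed. The number lower was 7 with library size only as the scale, where 30 of all 341 names were lower. It was also 7 without control library 2 or without control library 3, where 28 and 26 of all 340 names were lower. The number higher was 1 without control library 1, 2, or 3 and without Na2SeO3 library 3. In these fits 44 of 341, 45 of 340, 49 of 340, and 46 of 378 names were higher.

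Among 10 miRNAs linked to promoting fibrosis or EMT, 2 were lower, 1 was higher, and 7 did not pass, beside the same 13.8% and 20.8% of all names. rno-miR-21-5p, the best known of them, was lower, at 11902, 12797, and 15234 CPM in control libraries 1 to 3 and 8453, 9694, and 9619 CPM in Na2SeO3 libraries 1 to 3 (log2 fold change -0.52, adjusted p = 0.0137, edgeR). rno-miR-10b-5p was lower by the same test (-1.20), and rno-miR-433-3p, from the imprinted Dlk1-Dio3 region, was higher (1.38). rno-miR-181a-5p, the second in abundance, was at -0.09 and did not pass. With library size only, 1 was lower and 2 were higher, where 30 of all 341 names were lower and 97 higher. Without control library 3, 1 was lower and 1 higher, where 26 of all 340 names were lower and 49 higher. The median of the list was -0.048, and its sign turned to 0.15 with library size only and to 0.056 without control library 3.

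**Figure D4:**
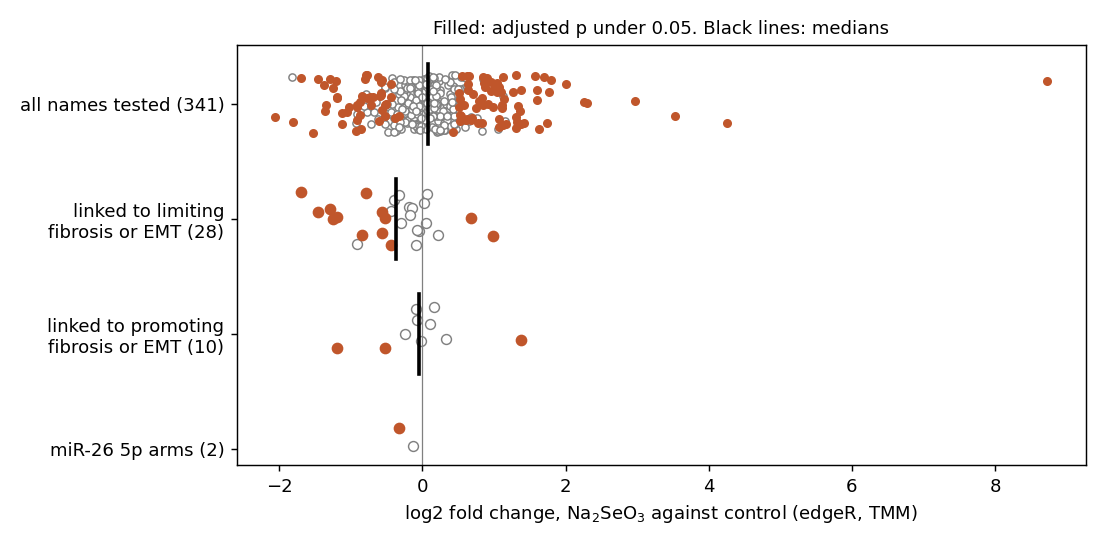
Log2 fold change (Na2SeO3 against control, edgeR with TMM) of all 341 names tested, of the 28 miRNAs linked to limiting and the 10 linked to promoting fibrosis or EMT, and of the miR-26 5p arms. Each point is a miRNA, filled where the adjusted p-value was under 0.05, and black lines are medians (0.08, -0.36, and -0.05). The miR-26 points, at -0.33 and -0.13, lie inside the range of both lists.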

How the data were processed

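Small RNA of lens capsules from 3 control and 3 Na2SeO3 rats was sequenced. Adapter and quality filtering by the authors used Cutadapt and Fqtrim, with FastQC as the quality check. They compared reads to the Ensembl rat genome with miRDeep (the labels also name HISAT2), and deposited raw counts per miRNA name, without normalization or pooling. Versions, genome build, and the treatment of reads matching several names are not given in the sources used here.

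Groups were taken from the treatment labels. Low names were dropped by filterByExpr (minimum count 10), TMM gave the scaling, and edgeR's quasi-likelihood test compared the groups, adjusted by Benjamini-Hochberg over 341 names. The standard error (SE) was the log2 fold change divided by the root of F. Log2 CPM used a prior count of 2. Shares and ratios, 1 number per library, were put to two-sided exact permutation tests. Marker lists were summed as unscaled CPM. No pair of libraries agreed within sampling noise (the chi-square was at least 28.0 times its degrees of freedom). Tools were R 4.3.3, edgeR 4.0.16, DESeq2 1.42.0, and SciPy 1.17.1.

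The members, the lists, and the rule for names (all rows of the family, the 3 nearest profiles of each 5p arm, the 2 most abundant and the 2 lowest adjusted p-values of each fibrosis list, and the most abundant marker of each cell type list) were chosen with earlier results of these data known. Further list members were named with their values in view. Alternatives were other scalings, filters, pseudocounts, totals, and family means, DESeq2, a replicate block, and the omission of each library. Those for the fibrosis lists and for the distance to the median were added after seeing the data. The mRNA libraries are not analysed here.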

Additional observations from a re-analysis of the deposited data

How the results depend on the processing

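The log2 fold change of rno-miR-26a-5p stayed negative in all 13 alternatives. It no longer passed the adjusted p-value of 0.05 with library size only as the scale (-0.13), without a filter (-0.41), with the replicate block (-0.33), and without each library in turn (-0.36 to -0.30), and it passed with DESeq2 and 3 other settings. Same-numbered libraries share only a number, and their deviations correlated at -0.17, -0.18, and -0.26. The replicate block changed no call of rno-miR-26b-5p. The log2 fold change of rno-miR-26b-5p turned to 0.068 with library size only. The share of counts of rno-miR-26a-5p differed by -0.327 percentage points, by -1.83 when the most abundant names were left out of the total, and by -0.489 to -0.197 without each library. That of rno-miR-26b-5p turned from a difference of 0.0162 to -0.0378 percentage points when the most abundant names were left out of the total, and ranged from -0.00946 to 0.0474 without each library, with the negative value without Na2SeO3 replicate 3. The median of the list linked to limiting fibrosis moved to -0.17 with library size only. That of the promoting list turned to 0.15 with library size only, and ranged from -0.095 to 0.056 without each library. Names passing the adjusted p-value numbered 118, and 73 to 128 without each library (73 without control replicate 2 and 75 without control replicate 3). Of those passing, 60.2% were higher with TMM, 76.4% with library size only, and 49.1% with DESeq2. The cause of these shifts was not tested. The 4 log2 ratios kept their direction in every alternative. Without each library the differences ranged from -0.30 to -0.035 against rno-miR-26b-5p, from -0.33 to -0.18 against let-7 and miR-98, from 0.037 to 0.21 against miR-30, and from -1.84 to -0.61 between the arms of rno-miR-26b. The 3p arms were fitted only without a filter, and neither passed. With 3 libraries per group, no exact test can go below 0.1.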
